A study of Mus musculus with 44 samples.

Results

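The comparison concerned mouse CD4 T cells that carry the knock-in (KI) genotype of microRNA-150 (miR-150) and asked which genes differed when the cells were cultured under Th1 instead of Th0 conditions. The members were 9 of the 44 libraries of the series, chosen by their titles: the 5 named Th1 KI (numbers 1 to 5) and the 4 named Th0 KI (numbers 1, 3, 4 and 5). Naive CD4 cells had been sorted from splenocytes of miR-150 KI mice of the C57BL/6NTac strain and seeded at 150000 cells per well. Th0 KI wells held plate-bound antibody to CD3 and soluble antibody to CD28 for 3 days. Th1 KI wells held the same antibodies plus interleukin-12 (IL-12) and an antibody that neutralises interleukin-4. All 9 libraries thus shared the knock-in, the receptor stimulus and the culture time, and differed in cytokine and antibody. The labels give neither the design of the knock-in allele, nor the age or sex of the mice, nor what a library number marks. The p-values thus measure a spread between libraries only. In the main fit this was the spread within the 9 groups of all 44 libraries, not that of the 9 KI libraries alone. The other libraries came from wild-type (WT) and miR-150 knockout (KO) mice and from Treg cultures, and entered the fit to estimate that spread.

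Th1 cells are the helper T cells that secrete interferon-gamma. IL-12 acts through a receptor of 2 chains, encoded by Il12rb1 and Il12rb2, and through the transcription factor STAT4, while T-bet, the product of Tbx21, drives Ifng and restrains the Th2 regulator GATA3. miR-150 is a microRNA of mature lymphocytes whose best known target is the mRNA of the transcription factor MYB.

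The 9 libraries held 91865044 to 137415965 counts each, and levels below are CPM, each gene's counts scaled to library size, after TMM normalisation. The hairpin gene Mir150 received at most 2 counts in any of the 9 libraries, below the floor of 3 counts, so these poly(A) libraries did not check the knock-in. Markers of CD4 T cells were present in all 9, with a summed level of 1907 to 2415 CPM in Th0 KI and 2004 to 2473 CPM in Th1 KI. Cd4 itself stood at 412.6 ± 106.2 CPM (SD, n = 4) in Th0 KI and 351 ± 57.4 CPM (SD, n = 5) in Th1 KI. The 2 libraries numbered KI 3 stood apart: Cd8a, a marker of CD8 T cells, was at 107.5 CPM in Th0 KI 3 and 107.4 CPM in Th1 KI 3, against 3.24 to 10.9 CPM in the other 7. The 10 B cell markers summed to 2051 CPM in Th0 KI 3 and 1494 CPM in Th1 KI 3, and to 285 to 815 CPM and 156 to 506.5 CPM in the other Th0 KI and Th1 KI libraries. Myeloid and dendritic markers summed to at most 35.9 CPM, with 2 of 13, the plasmacytoid marker Siglech and the neutrophil gene S100a9, at 0 in all 9, and S100a8 at 0 in all but Th0 KI 5. In bulk RNA, fewer cells of a type and less RNA per cell cannot be told apart. Y-linked transcripts were detected in Th0 KI 1, Th1 KI 1 and Th1 KI 2 and in none of the other 6.

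**Figure D1:**
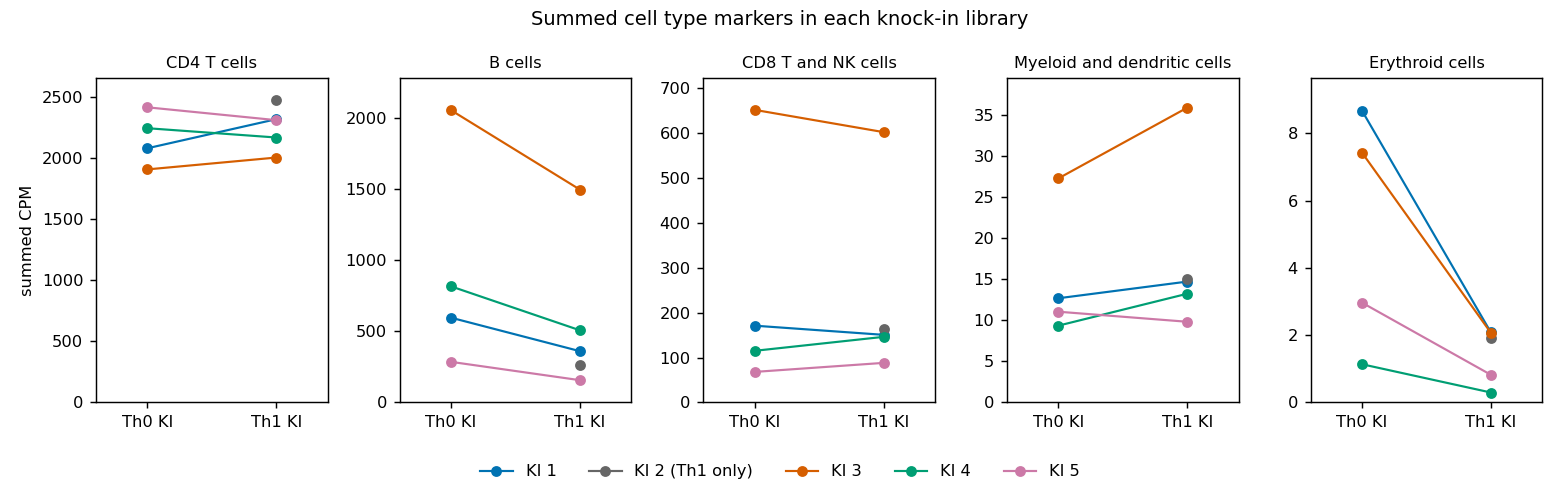
Summed CPM of marker genes in each knock-in library, with lines joining Th0 KI and Th1 KI libraries of the same number (Th1 KI 2 has no partner). Both KI 3 libraries lie above the others for B cell markers (2051 and 1494 CPM) and CD8 T and NK cell markers (652 and 602.5 CPM), while CD4 T cell markers lie between 1907 and 2473 CPM in all 9.

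Th1 culture of KI cells changed many genes in both directions. Of 21873 genes tested, 652 (2.98%) were called higher and 643 (2.94%) lower in Th1 KI, together 5.92%, by edgeR's quasi-likelihood test at an adjusted p below 0.05. The median absolute log2 fold change of the called genes was 0.85, and 194 of the risers and 71 of the fallers changed by more than 2 on the log2 scale. The median over all genes tested was -0.02. Same-numbered libraries deviated together from their group means, so a fit with the library number as a block is given too. That paired fit also leaves out the Treg libraries, which the unpaired fit holds, and it called 1694 genes higher (8.11%) and 2136 lower (10.2%) of 20881, together 18.3%, and 1257 of the 1295 genes were among them. A reduced fit left out every library numbered KI 3, KO 2 or WT 4, the highest in Cd8a of each genotype by earlier results, and called 7.26% of its 21968 genes. DESeq2 called 1908 genes in all 44 libraries unpaired. In the 29 Th0 and Th1 libraries without pairing, edgeR called 1500 genes. The unpaired total by edgeR over the series was 390 without Th0 KI 1, 682 without Th1 KI 2, 782 without Th1 KI 3 and 819 without Th1 KI 1. In what follows, "rose" and "fell" are used of genes that passed the test, and values are differences on the log2 scale with their standard error (SE) unless given in CPM. Counts of called members of a gene list are to be read beside the shares of all genes tested. These were 2.98% higher and 2.94% lower unpaired, and 8.11% and 10.2% paired.

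Ifng, Tbx21, Hlx and Il12rb2, which define the Th1 lineage, were higher in Th1 KI in 4 of 4 pairs, missed the threshold in the unpaired fit of all 44 libraries and passed it in the paired fit. Fits without the Treg libraries and without pairing also called some of them: Tbx21 in the 29 Th0 and Th1 libraries (adjusted p = 0.0266 by edgeR), and Il12rb2 and Hlx in the 9 KI libraries alone (adjusted p = 0.00587 and 0.0307 by edgeR). Ifng, the gene of interferon-gamma (chromosome 10, 118441046 to 118445892, plus strand, GRCm38), stood at 232, 1022, 134.1 and 36.5 CPM in Th0 KI 1, 3, 4 and 5, and at 1214, 1426, 1241, 1291 and 791 CPM in Th1 KI 1 to 5. All Th1 KI libraries but number 5 lay above all Th0 KI libraries, and Th0 KI 3 lay far above the other Th0 KI libraries. The log2 fold change of Ifng was 1.74 ± 1.47 with an adjusted p of 0.549 by edgeR unpaired, and 2.65 ± 0.66 with an adjusted p of 0.0115 paired. Th0 KI 3 was also the Th0 KI library with the highest Cd8a and B cell markers, and their part in its Ifng level was not tested. In the reduced fit the unpaired difference of Ifng was 3.17, with an adjusted p of 0.0789 by edgeR.

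Tbx21 (chromosome 11, 97098071 to 97115331, minus strand) stood at 40.3, 74.7, 65.6 and 62.4 CPM in Th0 KI 1, 3, 4 and 5 and at 87.5, 99.9, 112.03, 85.5 and 91.3 CPM in Th1 KI 1 to 5. The groups did not overlap. Its log2 fold change was 0.65 ± 0.81 (adjusted p = 0.721 by edgeR) unpaired and 0.66 ± 0.14 (adjusted p = 0.00498 by edgeR) paired, and 0.65 ± 0.18 in the 29 Th0 and Th1 libraries unpaired. Hlx, a homeobox factor that acts with T-bet, stood at 0.0562, 0.400, 0.225 and 0.0282 CPM in Th0 KI 1, 3, 4 and 5 and at 1.93, 1.96, 1.09, 1.28 and 0.821 CPM in Th1 KI 1 to 5. Hlx differed by 2.97 ± 1.15 (adjusted p = 0.117 by edgeR) unpaired and 3.10 ± 0.79 (adjusted p = 0.0132 by edgeR) paired, and it also passed in the reduced fit, at 3.86 (adjusted p = 0.0263 by edgeR).

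Stat4 went the other way. It stood at 880.5, 575.5, 491 and 503 CPM in Th0 KI 1, 3, 4 and 5 and at 314, 355, 362, 351 and 378 CPM in Th1 KI 1 to 5, so that every Th1 KI library was below every Th0 KI library. The difference of Stat4 was -0.80 ± 0.41 (adjusted p = 0.258 by edgeR) unpaired and -0.76 ± 0.20 (adjusted p = 0.0166 by edgeR) paired. Without pairing, Stat4 was also called in the 29 Th0 and Th1 libraries and in the 9 KI libraries alone (adjusted p = 0.0432 and 0.0266 by edgeR).

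Of the 16 Th1 transcription factor genes listed, 1 rose and none fell in the unpaired fit, and 7 rose and 2 fell in the paired fit, with a median of 0.37 and 0.29. The unpaired riser was Ikzf3, the lymphoid factor Aiolos, at 1.14 ± 0.29 (adjusted p = 0.0159 by edgeR). Its call was lost without Th0 KI 1 or Th0 KI 5 (adjusted p = 0.0616 to 0.0915). The paired risers besides Tbx21, Hlx and Ikzf3 were Batf3 by 2.71 ± 0.42, Prdm1, which encodes BLIMP-1, by 2.36 ± 0.27, Runx3 by 0.53 ± 0.10 and Bhlhe40 by 0.48 ± 0.11. These 4 genes and Eomes were named after their values were seen. Eomes, the T-box relative of T-bet, fell by 1.53 ± 0.26 in the paired fit, from 113.4, 60.9, 156 and 137.4 CPM in Th0 KI 1, 3, 4 and 5 to 35.4, 28.2, 31.2, 43.6 and 44.4 CPM in Th1 KI 1 to 5. Both T-box genes were thus separated between the groups, in opposite directions. Without pairing, Eomes, Batf3 and Prdm1 were also called in the 9 KI libraries alone (adjusted p = 0.0052, 0.00885 and 0.0262 by edgeR).

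**Figure D2:**
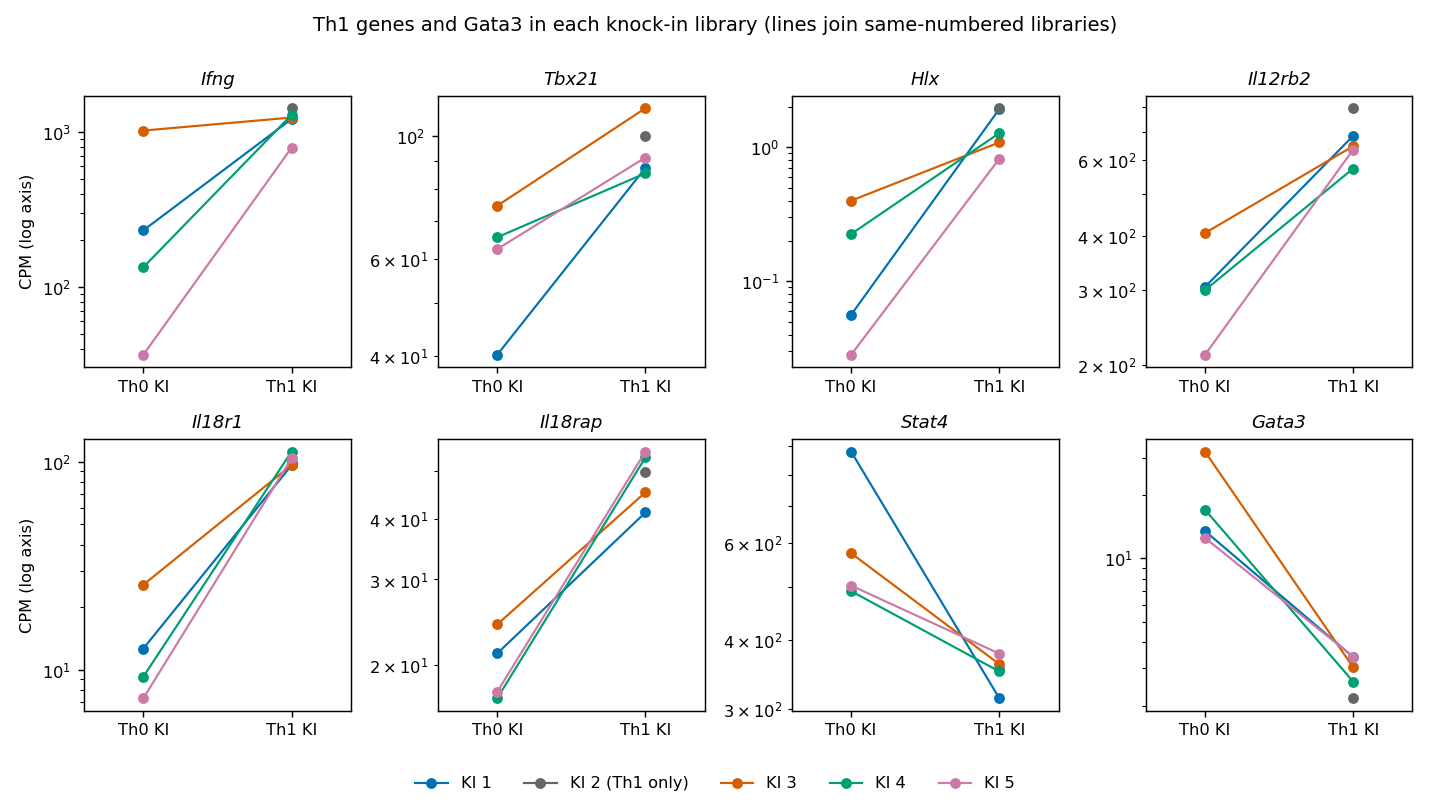
CPM on a log axis of 8 genes in the 4 Th0 KI and 5 Th1 KI libraries, with lines joining libraries of the same number and Th1 KI 2 as a single point. All lines rise for Ifng, Tbx21, Hlx, Il12rb2, Il18r1 and Il18rap and fall for Stat4 and Gata3, and Th0 KI 3 starts highest for Ifng (1022 CPM) and Il18r1 (25.6 CPM).

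Both chains of the receptor for interleukin-18, the cytokine that acts with IL-12 to raise interferon-gamma, rose in Th1 KI. Il18r1 (chromosome 1, 40465552 to 40500854, plus strand) stood at 12.6, 25.6, 9.26 and 7.29 CPM in Th0 KI 1, 3, 4 and 5 and at 96.3, 99.8, 96.5, 111.95 and 103.8 CPM in Th1 KI 1 to 5. It rose by 2.89 ± 0.44, or 7.41-fold (adjusted p = 8.23e-05 by edgeR). Its neighbour Il18rap (chromosome 1, 40515362 to 40551705, plus strand) rose by 1.29 ± 0.23 (adjusted p = 5.19e-04 by edgeR), from 17.1 to 24.3 CPM across Th0 KI to 41.2 to 54.9 CPM across Th1 KI.

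Of the 2 chains of the IL-12 receptor, 1 was called in the paired fit and with the 9 KI libraries alone. Il12rb1 did not separate the groups, with 91.3 ± 12.3 CPM (SD, n = 4) in Th0 KI and 89.8 ± 4.48 CPM (SD, n = 5) in Th1 KI, a difference of -0.02 ± 0.45 whose sign changed with the libraries included. Il12rb2, the inducible chain, stood at 304.5, 407, 299 and 212 CPM in Th0 KI 1, 3, 4 and 5 and at 684.5, 794, 648, 574 and 636 CPM in Th1 KI 1 to 5. The groups of Il12rb2 did not overlap, and its difference was 1.13 ± 0.87 (adjusted p = 0.498 by edgeR) unpaired and 1.09 ± 0.18 (adjusted p = 9.5e-04 by edgeR) paired. Il2ra, the high-affinity chain of the interleukin-2 receptor, rose by 1.11 ± 0.24, from 790 to 1018 CPM across Th0 KI to 1857 to 2204 CPM across Th1 KI. Ifngr2, the signalling chain of the interferon-gamma receptor, fell by 0.93 ± 0.19. It lay at 9.74 to 12.7 CPM in 4 Th1 KI libraries and at 18.2 to 33.7 CPM in Th0 KI, while Th1 KI 3 held 22.1 CPM. The call of Ifngr2 was lost with the 9 KI libraries alone (adjusted p = 0.0943 by edgeR). Of the 16 receptor and kinase genes 3 rose and 1 fell (4 and 3 in the paired fit).

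Other products of Th1 cells were less uniform. Of 16 cytokine, chemokine and cytotoxic genes 1 rose and none fell in the unpaired fit, with a median of -0.27, and 3 rose and 2 fell when paired. The riser was Tnfsf10, the death ligand TRAIL, by 1.45 ± 0.26. Il10, an inhibitory cytokine that Th1 cells can also make, was at 0.137 to 0.484 CPM in Th0 KI and 0.520 to 2.82 CPM in Th1 KI, and differed by 2.77 ± 1.5 (adjusted p = 0.289 by edgeR) unpaired and 2.76 ± 0.45 (adjusted p = 9.29e-04 by edgeR) paired. Fasl, the Fas ligand gene, lay at 40.3 to 79.95 CPM in Th0 KI and 20.7 to 27.6 CPM in Th1 KI, at -1.20 ± 0.75 (adjusted p = 0.372 by edgeR) unpaired and -1.20 (adjusted p = 4.58e-04 by edgeR) paired. Without pairing, Il10 and Fasl were also called in the 9 KI libraries alone (adjusted p = 0.0202 and 0.00853 by edgeR). Fasl was called in the 29 Th0 and Th1 libraries unpaired too (adjusted p = 0.0189 by edgeR). Of 13 Th1-linked surface receptors none was called in the unpaired fit of all 44 libraries by edgeR or DESeq2, with a median of 0.04, and 2, Cxcr3 and Il1rl1, had an unadjusted p below 0.05 by edgeR. In the paired fit Lag3, an inhibitory receptor gene, rose by 0.66 (adjusted p = 0.0254 by edgeR) and Ly6c2 fell by 1.01 (adjusted p = 0.028 by edgeR), both named after their values were seen. Cxcr3, the chemokine receptor most used to mark Th1 cells, overlapped between the groups at 1.91 to 4.18 CPM in Th0 KI and 3.27 to 9.30 CPM in Th1 KI. The difference of Cxcr3 was 1.01 ± 0.38 (adjusted p = 0.103 by edgeR) unpaired and 0.75 (adjusted p = 0.0853 by edgeR) paired, and 1.31 (adjusted p = 0.048 by edgeR) without Th0 KI 3. Il1rl1, the interleukin-33 receptor gene, differed by 1.46 ± 0.63 (adjusted p = 0.167 by edgeR) unpaired and 1.36 (adjusted p = 0.115 by edgeR) paired, and by 1.86 (adjusted p = 0.0153 by edgeR) in the reduced fit. It was called in the 29 Th0 and Th1 libraries unpaired (adjusted p = 0.0448 by edgeR).

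The genes that rose most were not the genes that define the lineage. They are given as the 12 largest risers and fallers among called genes with a mean of at least 2 on the log2 CPM scale, no overlap between the groups and a name other than a clone or predicted one. Without regard to the test, the groups did not overlap in 5.67% of genes tested in the higher and 4.4% in the lower direction, and 319 risers and 304 fallers met all the conditions. Serpinb5, which encodes the serpin maspin, rose by 7.81 ± 1.37 (adjusted p = 4.4e-04 by edgeR). It received 4, 21, 0 and 0 counts in Th0 KI 1, 3, 4 and 5 and stood at 27.6, 9.93, 11.9, 10.7 and 3.41 CPM in Th1 KI 1 to 5. Cxcr1, a receptor for neutrophil-attracting chemokines, rose by 6.61 ± 0.86 (adjusted p = 9.11e-06 by edgeR), from 0.101, 0.400, 0.0098 and 0.0282 CPM to 13.3, 19.01, 19.95, 7.78 and 8.56 CPM. Both genes were thus nearly silent under Th0 conditions and present in every Th1 KI library. Timp1, an inhibitor of metalloproteinases, rose by 5.56 ± 1.15 (adjusted p = 0.00242 by edgeR), from 0.404, 4.47, 0.705 and 0.518 CPM to 102.5, 79.7, 97.8, 46.8 and 36.2 CPM. The highest Th0 KI level of all 3 genes was in Th0 KI 3.

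The promoters of these 3 genes and of Ifng are shown because they are the 3 largest of these rises with a promoter in the table and, for Ifng, because it defines the lineage. Each runs from 250 bases before to 50 bases after the RefSeq start site, 5′ to 3′ on the gene's strand, on GRCm38.p6. The build behind the authors' counts was not known. Capitals mark a match to TTCNNNGAA, the core bound by STAT factors, which reads the same on both strands; the T-box core TCACACC and its reverse complement GGTGTGA were searched too. No T-box core was found in these 4 windows, so no match of one motif overlapped a match of the other.
Serpinb5 promoter, chr1:106860925-106861224, plus strand: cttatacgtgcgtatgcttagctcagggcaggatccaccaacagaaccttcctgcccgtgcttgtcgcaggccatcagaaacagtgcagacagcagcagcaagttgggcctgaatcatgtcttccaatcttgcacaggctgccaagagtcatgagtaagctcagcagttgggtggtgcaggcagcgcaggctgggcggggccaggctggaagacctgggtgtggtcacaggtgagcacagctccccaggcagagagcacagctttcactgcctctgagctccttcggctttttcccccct
Cxcr1 promoter, chr1:74194582-74194881, minus strand: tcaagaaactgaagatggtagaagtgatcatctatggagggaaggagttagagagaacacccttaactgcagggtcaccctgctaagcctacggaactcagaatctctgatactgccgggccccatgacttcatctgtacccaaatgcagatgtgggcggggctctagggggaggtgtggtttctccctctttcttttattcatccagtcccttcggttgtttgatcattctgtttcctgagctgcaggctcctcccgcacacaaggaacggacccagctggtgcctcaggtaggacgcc
Timp1 promoter, chrX:20869916-20870215, plus strand: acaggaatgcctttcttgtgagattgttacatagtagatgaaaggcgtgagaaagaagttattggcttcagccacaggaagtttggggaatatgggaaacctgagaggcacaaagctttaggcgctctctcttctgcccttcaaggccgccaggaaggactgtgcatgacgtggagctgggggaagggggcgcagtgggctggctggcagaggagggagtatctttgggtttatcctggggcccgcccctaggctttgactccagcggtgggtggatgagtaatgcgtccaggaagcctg
Ifng promoter, chr10:118440796-118441095, plus strand: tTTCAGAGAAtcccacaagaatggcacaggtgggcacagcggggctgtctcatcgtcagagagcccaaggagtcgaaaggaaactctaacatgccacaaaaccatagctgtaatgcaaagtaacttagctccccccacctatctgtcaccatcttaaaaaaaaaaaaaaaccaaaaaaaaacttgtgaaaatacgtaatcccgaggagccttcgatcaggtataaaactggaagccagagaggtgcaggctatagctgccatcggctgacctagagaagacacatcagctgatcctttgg
The window of Ifng held 1 STAT core at its distal end, and those of Serpinb5, Cxcr1 and Timp1 none. Of the 12 largest risers 9 had a promoter in the table and 1 of these held TTCNNNGAA (11.1%), as did 1 of 10 of the largest fallers (10%). Of all genes called higher 9.86% of 436 promoters held it, of those called lower 8.06% of 459, of all genes tested 7.29% of 12845 and of all 27025 promoters 8.47%. A T-box core stood in 3.21% of promoters of genes called higher, 2.4% of those called lower, 3.64% of those tested and 3.96% of all. These shares describe letters in a short window and were not tested.

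The other 9 of the 12 largest risers were of several kinds. Myh11 and Mylk, the smooth muscle myosin heavy chain and a myosin kinase, rose by 6.35 ± 0.84 and 3.96 ± 1.01. Myh11 stood at 0.236, 0.077, 0.431 and 0.188 CPM in Th0 KI 1, 3, 4 and 5 and at 28.3, 17.03, 3.72, 33.9 and 11.7 CPM in Th1 KI 1 to 5, with Th1 KI 3 lowest. Of membrane transporters, Atp6v0d2, a subunit of the vacuolar proton pump, rose by 5.12 ± 1.17, the calcium pump gene Atp2b4 by 4.52 ± 0.98 and the cholesterol exporter gene Abca1 by 3.53 ± 0.63. Atp2b4 reached 339 to 627 CPM in Th1 KI from 4.88, 77.5, 3.997 and 1.70 CPM in Th0 KI 1, 3, 4 and 5, and its difference was 6.15 in the paired fit and 7.11 in the reduced fit. Without Th0 KI 3 the differences of Atp2b4 and Atp6v0d2 were 7.19 and 8.24. Abca1 stood at 5.95, 14.1, 8.31 and 4.44 CPM in Th0 KI 1, 3, 4 and 5 and at 92.5, 132.4, 101.3, 66.7 and 81.8 CPM in Th1 KI 1 to 5. The adhesion molecule gene Chl1 rose by 4.51 ± 0.74, the membrane protein gene Emp1 by 4.10 ± 0.90, the secreted semaphorin gene Sema3b by 3.77 ± 0.94 and the scaffold gene Frmd4b by 3.62 ± 0.85. All 12 risers were called in the paired fit. The calls of Mylk, Sema3b and Frmd4b were lost without Th0 KI 1 (adjusted p = 0.0736, 0.0734 and 0.0524 by edgeR).

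The largest fall among these was that of Tbc1d4 (chromosome 14, 101442360 to 101609191, minus strand), which controls the traffic of glucose transporters. It stood at 146, 57.02, 129.3 and 125.2 CPM in Th0 KI 1, 3, 4 and 5 and at 8.46, 7.16, 5.66, 14.9 and 16.2 CPM in Th1 KI 1 to 5, and fell by 3.45 ± 0.60 (adjusted p = 4.21e-04 by edgeR). Lad1, an anchoring filament gene, fell by 3.28 ± 0.79 and varied widely within Th1 KI, from 0.847 CPM in Th1 KI 3 to 46.2 CPM in Th1 KI 5. The axonemal dynein gene Dnah12 fell by 3.23 ± 0.53, the naive-cell gene Dapl1 by 2.81 ± 0.60, the purinergic receptor gene P2ry1 by 2.16 ± 0.52, Lrrc32, which anchors latent TGF-beta, by 2.11 ± 0.50, Pter by 2.09 ± 0.40 and the receptor gene Cd96 by 2.05 ± 0.34. Ifi206 and Gbp10, interferon-induced genes with near-identical copies and so uncertain, fell by 2.22 ± 0.68 and 1.96 ± 0.58. Their calls were lost without Th0 KI 1, Th0 KI 4, Th1 KI 1, Th1 KI 2 or Th1 KI 5, that of Gbp10 also without Th1 KI 3, with adjusted p up to 0.145 and 0.159 by edgeR. Gata3 and Csf2 complete the 12 fallers and are described with their lineages. All 12 were called in the paired fit.

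**Figure D3:**
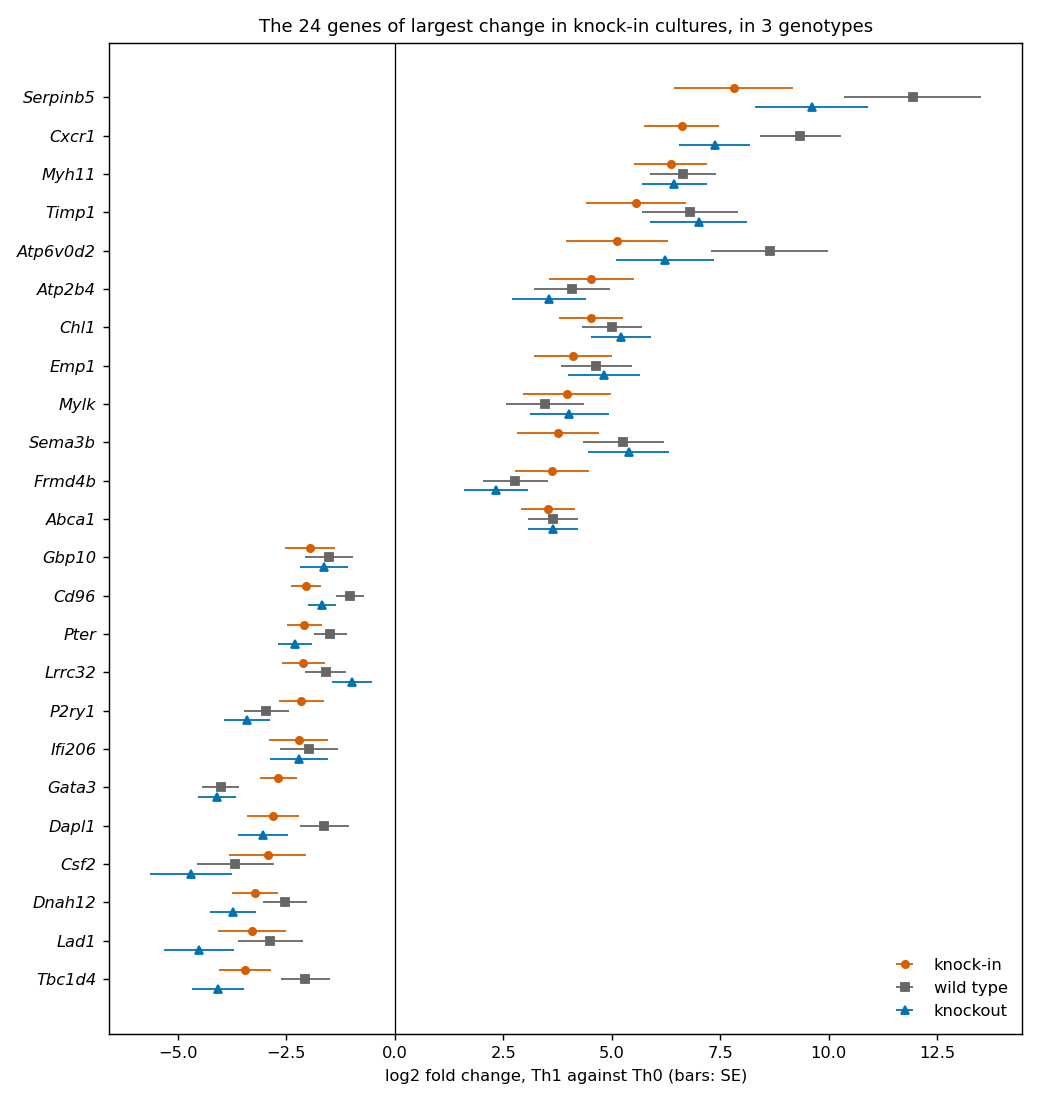
Log2 fold change of Th1 against Th0 culture with its SE for the 12 largest risers and 12 largest fallers of KI cultures, in KI (circles), WT (squares) and KO (triangles). The genes were chosen by their KI values, which run from -3.45 (Tbc1d4) to 7.81 (Serpinb5), and every WT and KO value lies on the same side of 0 as the KI value.

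Gata3, the regulator of the Th2 lineage that T-bet opposes (chromosome 2, 9857078 to 9890034, minus strand), fell. It stood at 13.5, 32.1, 16.996 and 12.5 CPM in Th0 KI 1, 3, 4 and 5 and at 3.40, 2.17, 3.04, 2.60 and 3.41 CPM in Th1 KI 1 to 5. The difference was -2.68 ± 0.42 (adjusted p = 1.2e-04 by edgeR), and no library of one group reached the other. Of 15 Th2 genes tested 1 rose and 2 fell (3 and 2 in the paired fit), with a median of -0.88. Ccr8, a chemokine receptor of Th2 and regulatory T cells, fell by 1.85 ± 0.50 (adjusted p = 0.021 by edgeR). It missed the threshold in the paired fit, at -1.75 (adjusted p = 0.077 by edgeR), and in the reduced fit, at -1.23 (adjusted p = 0.14 by edgeR), as well as without Th0 KI 1, Th0 KI 3 or Th1 KI 3 alone (adjusted p = 0.0665 to 0.0964). The riser was Maf, a factor that drives Il4 and Il10, by 2.59 ± 0.75 from 0.196 to 0.400 CPM to 1.58 to 2.86 CPM. Its call was lost without Th0 KI 1, Th0 KI 4, Th0 KI 5, Th1 KI 1, Th1 KI 2 or Th1 KI 3 (adjusted p up to 0.1 by edgeR). Il4 was below 1 CPM in all 9 libraries and differed by -1.0 ± 0.82, and Il9 was listed at 0 in all 5 Th1 KI libraries and at most at 0.160 CPM in Th0 KI.

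Foxp3, the factor of regulatory T cells, was at 0.753 to 1.80 CPM in Th0 KI and 0.569 to 1.68 CPM in Th1 KI, with a difference of -0.12 ± 0.59 whose sign changed in the paired fit. Of 20 Treg genes 2 rose and 3 fell (3 and 4 in the paired fit), against 2.98% and 2.94% of all genes tested (8.11% and 10.2% paired). Ikzf4, the factor Eos, rose by 1.60 ± 0.27, from 17.9 to 20.4 CPM across Th0 KI to 47.7 to 71.7 CPM across Th1 KI, and the other riser was Il2ra. Lrrc32 and Ccr8 fell as given, and Izumo1r, the folate receptor 4 gene, fell by 0.76 ± 0.23, a call that was lost on leaving out any 1 library but Th1 KI 5 (adjusted p = 0.0565 to 0.176 by edgeR).

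Several genes known from Th17 cells rose. Of 13 Th17 genes 4 rose and none fell (6 and 1 in the paired fit), with a median of 1.14. Il23r, a chain of the receptor for interleukin-23 that pairs with the product of Il12rb1, stood at 0.505, 0.538, 0.382 and 0.122 CPM in Th0 KI 1, 3, 4 and 5 and at 5.71, 5.89, 5.04, 7.37 and 4.64 CPM in Th1 KI 1 to 5. Il23r rose by 3.88 ± 1.08, Il1r1, the interleukin-1 receptor, by 2.97 ± 0.86, the aryl hydrocarbon receptor gene Ahr by 1.41 ± 0.38 and Hif1a, the hypoxia factor, by 1.15 ± 0.36. The calls of these 4 depended on single libraries: Il23r lost its call without Th0 KI 1, Th0 KI 4 or Th0 KI 5, Ahr without Th0 KI 1, Th0 KI 5, Th1 KI 1 or Th1 KI 3, Il1r1 without Th0 KI 1, Th0 KI 3, Th0 KI 4, Th1 KI 2 or Th1 KI 3, and Hif1a without any library but Th0 KI 3 and Th1 KI 4. The adjusted p then reached 0.0896, 0.138, 0.139 and 0.156 by edgeR, and all 4 were called in the paired fit. Il21, a cytokine of Th17 and follicular cells that Th1 cells also make, showed a wide gap, with 2.55, 7.47, 0.4996 and 0.546 CPM in Th0 KI 1, 3, 4 and 5 and 53.9, 73.2, 46.1, 51.5 and 49.2 CPM in Th1 KI 1 to 5. Its difference was 4.30 ± 1.70 (adjusted p = 0.125 by edgeR) unpaired and 4.92 ± 0.71 (adjusted p = 3.39e-04 by edgeR) paired, and 5.61 (adjusted p = 5.78e-04 by edgeR) in the reduced fit. Without pairing, Il21 was also called in the 29 Th0 and Th1 libraries and in the 9 KI libraries alone (adjusted p = 0.00992 and 0.0115 by edgeR).

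Interferon-induced genes were lower in Th1 KI, while Ifng itself was higher in 4 of 4 pairs. Of 22 genes that interferon-gamma induces none rose and 6 fell, with a median of -0.43, and in the paired fit none rose and 11 fell. Those named were the immunity-related GTPases Iigp1 at -1.86 ± 0.55, Irgm1 at -1.16 ± 0.29 and Tgtp1 at -1.09 ± 0.30, and the guanylate-binding proteins Gbp6 at -1.60 ± 0.47 and Gbp7 at -1.24 ± 0.33. Members of both families have near-identical copies and are uncertain where reads map to several genes. Iigp1 stood at 446, 111.05, 552.5 and 304 CPM in Th0 KI 1, 3, 4 and 5 and at 90.9, 65.9, 71.6, 164 and 92.8 CPM in Th1 KI 1 to 5, so the groups overlapped while each pair fell. The class II activator gene Ciita, which B cells also express, differed by -1.78 ± 0.84 (adjusted p = 0.216 by edgeR) unpaired and -1.34 (adjusted p = 0.0118 by edgeR) paired, with its highest levels in Th0 KI 3 and Th1 KI 3 (40.7 and 13.02 CPM), as for the B cell markers. Without Th0 KI 3 the unpaired difference of Ciita was -0.32, and without Th1 KI 3 it was -2.88. The part of B cells in its value was not tested.

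The antiviral genes that type I interferon induces were lower too. Of 18 none rose and 5 fell, with a median of -1.79, and 14 fell in the paired fit, with a median of -1.48. Mx1 stood at 118.7, 9.51, 149.5 and 16.1 CPM in Th0 KI 1, 3, 4 and 5. In Th1 KI 1 to 5 Mx1 stood at 9.40, 1.48, 3.27, 19.5 and 2.59 CPM. Th0 KI 1 and Th0 KI 4 were high, Th0 KI 3 and Th0 KI 5 lay within the Th1 KI range, and Th1 KI was lower in 4 of 4 pairs. Mx1 fell by 3.34 ± 0.89 (adjusted p = 0.0189 by edgeR), Isg20, an exonuclease gene, by 2.28 ± 0.46, and the RNA-binding genes Ifit1, Ifit3 and Ifit2 by 2.20 ± 0.65, 2.17 ± 0.65 and 1.49 ± 0.31. Ifi44 differed by -2.63 ± 0.85 (adjusted p = 0.0559 by edgeR) unpaired and -2.13 (adjusted p = 2.92e-04 by edgeR) paired. DESeq2 called Ifi44 unpaired (adjusted p = 0.0176 by DESeq2). Most of these calls depended on single libraries. Without Th0 KI 1, the adjusted p by edgeR was 0.0578 for Ifit2, and for Mx1, Ifit1, Ifit3, Iigp1, Gbp6, Gbp7, Irgm1 and Tgtp1 it passed 0.05 too. These 8 calls were also lost without Th0 KI 4, and all but that of Irgm1 without Th1 KI 2 or Th1 KI 5. Those of Ifit1, Ifit3, Iigp1, Gbp6, Gbp7 and Tgtp1 were lost without Th1 KI 1, those of Mx1, Ifit1, Ifit3 and Iigp1 without Th1 KI 3, and that of Gbp6 without Th0 KI 5. The adjusted p over these fits reached 0.234 (Ifit1).

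**Figure D4:**
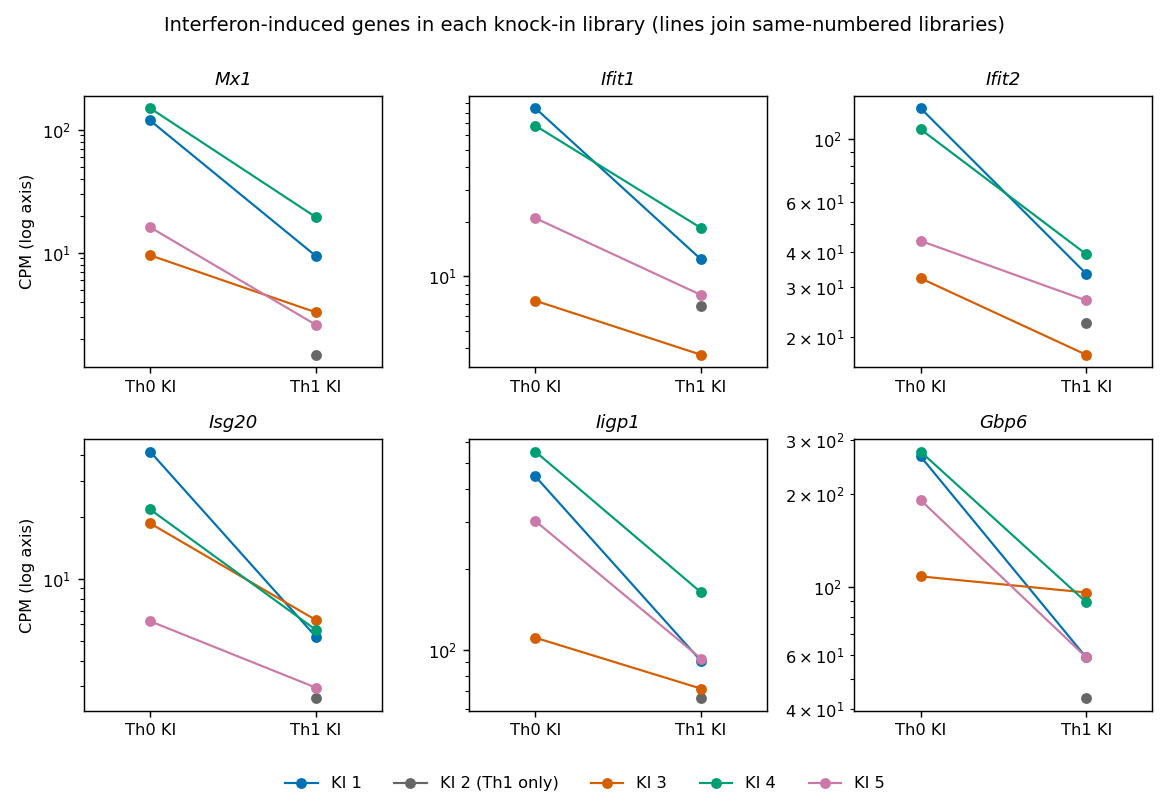
CPM on a log axis of 6 interferon-induced genes in the Th0 KI and Th1 KI libraries, with lines joining libraries of the same number. All 4 lines fall in each panel, and Th0 KI 1 and Th0 KI 4 start high for Mx1 (118.7 and 149.5 CPM) and Ifit1 (84.6 and 67.7 CPM) while Th0 KI 3 and Th0 KI 5 start low.

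Genes of naive and resting T cells rose more often than they fell. Of 20 such genes 6 rose and 1 fell (9 and 2 in the paired fit), with a median of 0.27. S1pr1, the receptor that lets T cells leave lymphoid tissue, stood at 13.5, 21.4, 10.2 and 12.9 CPM in Th0 KI 1, 3, 4 and 5 and at 99.4, 120.7, 118.3, 71.1 and 84.4 CPM in Th1 KI 1 to 5. S1pr1 rose by 2.77 ± 0.48 (adjusted p = 4.1e-04 by edgeR) and Igfbp4, a binding protein of insulin-like growth factors, by 2.49 ± 0.58. The chromatin organiser gene Satb1 rose by 1.19 ± 0.35 and the factor gene Lef1 by 0.79 ± 0.23. The 1 faller was Dapl1. The call of Satb1 was lost without Th0 KI 1, Th0 KI 3, Th0 KI 5, Th1 KI 1, Th1 KI 2 or Th1 KI 5 and that of Lef1 without any library but Th0 KI 5 and Th1 KI 4 (adjusted p up to 0.163 and 0.17 by edgeR), and both were called in the paired fit. Bcl6, the factor of follicular helper cells, differed by 0.89 ± 0.36 (adjusted p = 0.141 by edgeR) unpaired and 1.04 (adjusted p = 0.0118 by edgeR) paired.

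Activation and inhibitory receptors and receptor-signal genes, taken as 1 list, were called in both directions. Of 21 genes 1 rose and 2 fell (4 and 7 in the paired fit). Of all genes tested 2.98% rose and 2.94% fell (8.11% and 10.2% paired). The costimulatory receptor gene Cd28 rose by 0.97 ± 0.23, from 174 to 283 CPM across Th0 KI to 394 to 509 CPM across Th1 KI, and its call was lost without Th0 KI 1 (adjusted p = 0.0519 by edgeR). The early activation gene Cd69, whose product retains T cells in tissue by opposing S1PR1, fell by 1.41 ± 0.28, from 259, 94.9, 233.5 and 190 CPM in Th0 KI 1, 3, 4 and 5 to 60.5, 57.3, 62.6, 104.2 and 82.3 CPM in Th1 KI 1 to 5. Cd160 fell by 1.54 ± 0.45, a call lost without Th0 KI 1, Th0 KI 3, Th1 KI 1, Th1 KI 2 or Th1 KI 5 (adjusted p up to 0.16 by edgeR). Nr4a3, which reports receptor signals, lay at 290 to 581 CPM in Th0 KI and 181 to 239 CPM in Th1 KI, at -1.01 ± 0.51 (adjusted p = 0.253 by edgeR) unpaired and -0.96 (adjusted p = 0.013 by edgeR) paired. It was also called in the 9 KI libraries alone without pairing (adjusted p = 0.0238 by edgeR).

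Among 12 cytokine genes of activated T cells 1 rose and 2 fell (3 and 3 in the paired fit), against 2.98% and 2.94% of all genes tested (8.11% and 10.2% paired). Csf2, which encodes GM-CSF, fell by 2.93 ± 0.89 (adjusted p = 0.0415 by edgeR). It stood at 32.6, 10.97, 26.5 and 31.1 CPM in Th0 KI 1, 3, 4 and 5 and at 1.37, 2.51, 1.39, 5.66 and 5.67 CPM in Th1 KI 1 to 5, without overlap. Tnfsf11, the gene of RANK ligand, fell by 2.42 ± 0.71, with its lowest level in Th1 KI 3 (2.59 CPM) and its lowest Th0 KI level in Th0 KI 3 (34.5 CPM). Osm, the gene of oncostatin M, rose by 0.66 ± 0.20. All 3 passed in the paired fit. The call of Csf2 was lost without any 1 library but Th0 KI 3 and Th1 KI 4, that of Tnfsf11 without Th0 KI 1, Th0 KI 4, Th0 KI 5, Th1 KI 1, Th1 KI 2 or Th1 KI 3 and that of Osm without Th0 KI 4, Th0 KI 5, Th1 KI 1, Th1 KI 2 or Th1 KI 5 (adjusted p up to 0.139, 0.0888 and 0.132 by edgeR).

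Of 18 feedback genes of cytokine signals 2 rose and none fell unpaired, and 3 rose and 4 fell paired. Socs3, an inhibitor of STAT3 and IL-12 signals, stood at 28.7, 96.6, 19.2 and 17.1 CPM in Th0 KI 1, 3, 4 and 5 and at 185, 203.5, 243, 124.7 and 142.7 CPM in Th1 KI 1 to 5, and rose by 2.15 ± 0.50 (adjusted p = 0.00704 by edgeR). Etv5, an ETS factor gene, rose by 3.51 ± 0.55, from 2.01 to 5.32 CPM across Th0 KI to 27.5 to 51.4 CPM across Th1 KI. Socs2 differed by -1.21 ± 0.50 (adjusted p = 0.14 by edgeR) unpaired and -1.17 (adjusted p = 1.08e-04 by edgeR) paired. The other paired calls, named after their values were seen, were Bcl3 at 1.09, the phosphatase genes Dusp5 and Dusp6 at -0.84 and -0.74, and Etv4, a relative of Etv5, at -1.48 (adjusted p = 0.00277, 0.00225, 0.0017 and 0.00533 by edgeR).

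Of 17 reported targets of miR-150, tested here in cells of 1 genotype, 3 rose and none fell unpaired, with a median of 0.36, and 3 rose and 1 fell paired. The risers were P2rx7, the ATP-gated channel, by 2.17 ± 0.43, Zeb1, a zinc finger repressor, by 1.14 ± 0.17, and Elk1, an ETS factor, by 0.97 ± 0.18. The paired faller, named after its values were seen, was the chemokine receptor gene Ccr6, at -1.61 ± 0.64 (adjusted p = 0.127 by edgeR) unpaired and -1.46 (adjusted p = 0.0478 by edgeR) paired. Zeb1 varied little within each group, at 59.3, 63.6, 63.3 and 62.9 CPM in Th0 KI 1, 3, 4 and 5 and at 144.2, 146, 121.5, 130.6 and 143.9 CPM in Th1 KI 1 to 5. Myb stood at 44.4, 26.6, 58.2 and 39.7 CPM in Th0 KI 1, 3, 4 and 5 and at 67.5, 62.7, 93.5, 54.5 and 39.1 CPM in Th1 KI 1 to 5. The groups of Myb overlapped, 2 of 4 pairs were higher in Th1 KI, and the difference was 0.59 ± 0.25 (adjusted p = 0.158 by edgeR). Gab1 was listed at 0 in all 9 libraries but Th1 KI 5 (0.083 CPM).

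Few metabolic genes were called. Of 10 genes of cholesterol efflux or regulated by the liver X receptor, Abca1 alone rose unpaired and 3 rose paired. Abcg1, a relative of Abca1, differed by 0.84 ± 0.45 (adjusted p = 0.276 by edgeR) unpaired and 0.78 (adjusted p = 0.0057 by edgeR) paired. No cholesterol synthesis gene of 18 and no glycolysis gene of 20 was called by edgeR in the unpaired fit of all 44 libraries. Idi1, an isomerase of cholesterol synthesis, was at -0.67 ± 0.22 (adjusted p = 0.055 by edgeR). DESeq2 called Idi1 in the same libraries unpaired, at -0.67 (adjusted p = 0.0318 by DESeq2). Hk2, the inducible hexokinase, was at 0.90 ± 0.47 (adjusted p = 0.271 by edgeR). In the paired fit Idi1 fell by 0.67 and Hk2 rose by 0.83 (adjusted p = 2.34e-04 and 2.54e-04 by edgeR), with 0 higher and 3 lower of the synthesis genes and 4 higher and 1 lower of the glycolysis genes. Without pairing, Idi1 and Hk2 were also called in the 29 Th0 and Th1 libraries (adjusted p = 0.0236 and 0.0269 by edgeR). The same held in the 9 KI libraries alone (adjusted p = 0.0144 and 0.0195 by edgeR). Of 20 oxidative phosphorylation genes 1 fell, Uqcrc2 of complex III, by 0.55 ± 0.15, a call lost without Th0 KI 1, Th1 KI 2 or Th1 KI 5 (adjusted p up to 0.341 by edgeR), and 9 fell in the paired fit, among them cytochrome c, Cycs, by 0.56 (-0.56 and adjusted p = 0.1 by edgeR unpaired). Cycs was also called in the 29 Th0 and Th1 libraries unpaired (adjusted p = 0.00938 by edgeR). None of 13 mitochondrial transcripts was called in the unpaired or the paired fit, the largest difference being -0.31 ± 0.19 for mt-Nd2. Their share of counts ran from 2.78% to 4.03% and was highest in Th0 KI 1.

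Of 24 cell cycle genes 3 fell and none rose unpaired, and 11 fell and 4 rose paired. Ccnb1, Cdk1 and Pcna, which act in mitosis and DNA replication, fell by 0.66 ± 0.20, 0.62 ± 0.18 and 0.41 ± 0.12. Ccna2 was at -0.57 ± 0.18 (adjusted p = 0.0547 by edgeR) and fell by 0.58 in the paired fit (adjusted p = 4.18e-04 by edgeR). DESeq2 called Ccna2 unpaired (adjusted p = 0.0339 by DESeq2). Th0 KI 1 held the highest level of Ccnb1, Cdk1 and Pcna (356, 238.5 and 760 CPM). Without Th0 KI 1 their differences were -0.41, -0.39 and -0.23, with an adjusted p of at most 0.409 by edgeR, and the calls were also lost without Th1 KI 2, Th1 KI 3 or Th1 KI 5, with Th0 KI 4 for Ccnb1 and Cdk1 and Th1 KI 1 for Pcna. With 4 KI pairs alone Pcna missed the threshold as well (adjusted p = 0.0923 by edgeR).

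Of 17 survival and death genes 1 rose and 2 fell (3 and 4 in the paired fit), against 2.98% and 2.94% of all genes tested (8.11% and 10.2% paired). Bcl2l11, the pro-apoptotic gene of BIM, stood at 22.3, 38.04, 44.8 and 31.6 CPM in Th0 KI 1, 3, 4 and 5 and at 152, 138.1, 149, 115.6 and 125.5 CPM in Th1 KI 1 to 5, and rose by 1.99 ± 0.31 (adjusted p = 9.44e-05 by edgeR). Bcl2a1b, a survival gene with near-identical copies and so uncertain, fell by 1.14 ± 0.33 and Bid by 0.59 ± 0.16. The call of Bid was lost without Th0 KI 1, Th0 KI 3, Th1 KI 1 or Th1 KI 2 and that of Bcl2a1b without Th0 KI 1, Th0 KI 3, Th1 KI 1, Th1 KI 2 or Th1 KI 5 (adjusted p up to 0.108 and 0.163 by edgeR). Of 17 adhesion and migration genes S1pr1 rose and Itgb3, the integrin beta 3 chain, fell by 1.88 ± 0.37, from 80.04, 64.2, 105.9 and 45.4 CPM in Th0 KI 1, 3, 4 and 5 to 24.5, 16.4, 28.5, 17.99 and 12.7 CPM in Th1 KI 1 to 5. In the paired fit 2 genes of that list rose and 4 fell.

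No marker of B cells (10), CD8 T and NK cells (10), myeloid and dendritic cells (12 tested) or erythroid cells (6) was called unpaired. In the paired fit 5 B cell, 1 CD8 T and NK cell and 3 erythroid markers fell, and the B cell marker sum was lower in Th1 KI in all 4 pairs. The largest unpaired differences were -1.30 ± 0.83 for Cd79b, -1.77 ± 1.08 for Klrb1c, -3.24 ± 1.4 for Hba-a2 and, among CD4 T cell markers, -0.51 ± 0.21 for Cd3g. Of the 10 CD4 T cell markers 1, Cd28, rose unpaired, and 1 rose and 3 fell paired. Without Th1 KI 1, the only Th1 KI library with Hba-a2 above 0, that gene was called (adjusted p = 0.0199 by edgeR). Cd8a differed by -0.33 ± 1.39. Without Th0 KI 3 the signs of Cd79b, Klrb1c and Cd8a turned, to 0.43, 0.46 and 1.69. Stress and dissociation genes summed to 2515 to 3632 CPM in Th0 KI and to 1785 to 2391 CPM in Th1 KI, without overlap. Of the 12 tested 4 were lower without overlap, against 4.4% of all genes tested. None of the 12 was called in the unpaired fit of all 44 libraries, and 1 rose and 2 fell paired. Atf3 was at -1.19 ± 0.95 (adjusted p = 0.517 by edgeR) and fell by 1.16 in the paired fit (adjusted p = 4.42e-04 by edgeR). Without pairing, Atf3 was also called in the 29 Th0 and Th1 libraries and in the 9 KI libraries alone (adjusted p = 0.0259 and 0.00486 by edgeR). None of 5 sex-linked genes was called, with 0.39 ± 2.54 for Kdm5d, whose sign changed with the libraries included. The part of these cells and signs in the results above was not tested.

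Some calls also depended on which libraries and genes entered the fit. With the 9 KI libraries alone, 14 named genes lost their call: Ikzf3, Ifngr2, Mx1, Ifit1, Ifit2, Ifit3, Cd160, Tnfsf11, Uqcrc2, Ccnb1, Cdk1, Pcna, Bcl2a1b and Jaml, with adjusted p from 0.0513 (Ikzf3) to 0.245 (Ccnb1) by edgeR. With no filter on low counts 20 did: Csf2, Ifi206, Gbp10, Iigp1, Gbp6, Ifit1, Ifit3, Maf, Il1r1, Hif1a, Izumo1r, Satb1, Lef1, Cd160, Tnfsf11, Osm, Ccnb1, Cdk1, Pcna and Bcl2a1b, with adjusted p from 0.0501 (Lef1) to 0.0831 (Izumo1r) by edgeR. With the 29 Th0 and Th1 libraries unpaired 6 did: Ifi206, Ifit3, Izumo1r, Tnfsf11, Osm and Ccnb1, with adjusted p from 0.0506 (Izumo1r) to 0.0744 (Ccnb1) by edgeR. Other genes gained a call. With the 9 KI libraries alone 14 did: Il12rb2, Stat4, Hlx, Il10, Il21, Nr4a3, Idi1, Hk2, Fasl, Atf3, Eomes, Prdm1, Batf3 and Dusp5. Their adjusted p ran from 0.00486 (Atf3) to 0.0307 (Hlx) by edgeR. With the 29 libraries unpaired 11 did: Tbx21, Stat4, Il1rl1, Il21, Idi1, Hk2, Cycs, Fasl, Atf3, Eomes and Batf3. Their adjusted p ran from 0.00938 (Cycs) to 0.0448 (Il1rl1) by edgeR. With DESeq2 on all 44 libraries 7 did: Ifi44, Idi1, Ccna2, Hint3, Prdm1, Bcl3 and Etv4. Their adjusted p ran from 0.0176 (Ifi44) to 0.0408 (Prdm1) by DESeq2.

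**Figure D5:**
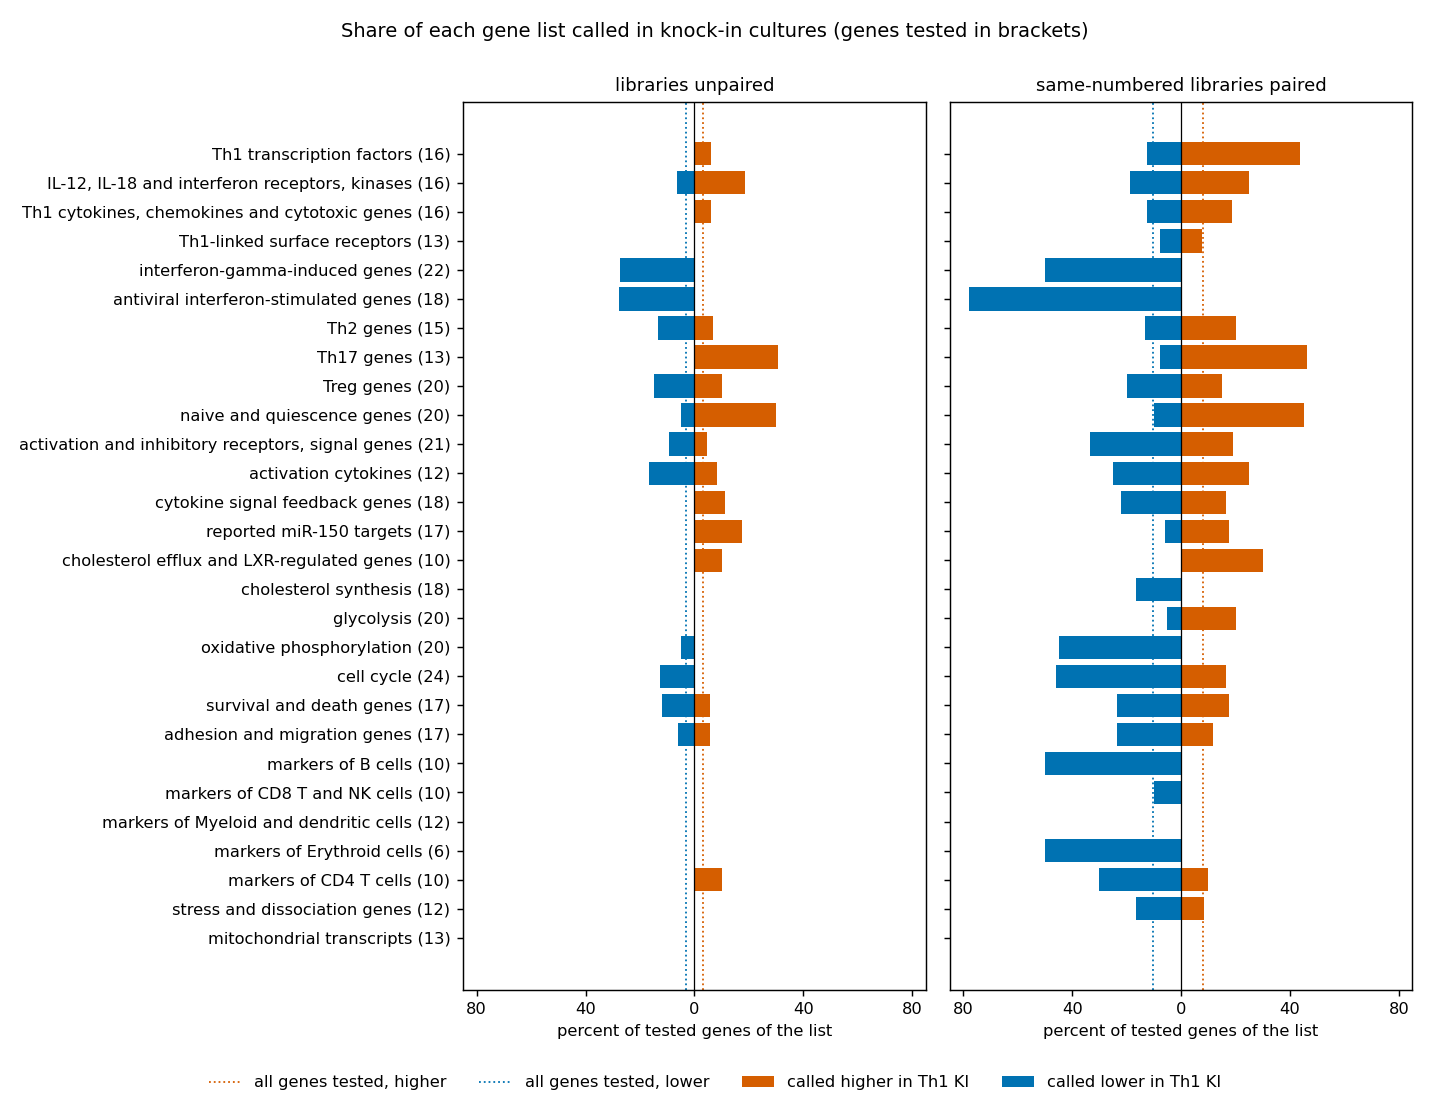
Share of the tested genes of each list called higher (right) or lower (left) in Th1 KI, unpaired and with same-numbered libraries paired, with dotted lines at the shares over all genes tested (2.98% and 2.94% unpaired, 8.11% and 10.2% paired). The 2 interferon lists lie on the left in both panels (6 of 22 and 5 of 18 genes unpaired, 11 and 14 paired), and the Th17 and naive lists mostly on the right.

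Whether the Th1 effect in KI cells differed from that in the other genotypes was tested as the difference of the effects, in the same fit. No gene was called for KI minus WT or for KI minus KO by edgeR. Of 21873 genes tested, 712 and 639 had an unadjusted p below 0.05 by edgeR. Both are a smaller share than the 0.05 that the threshold alone would give. DESeq2 called 1 (0.00457%) and 5 (0.0229%). They were Fcrls in both, and Enpep, Ngp, Gm49804 and 4930486L24Rik for KI minus KO, named after their values were seen. Of the 29 Th0 and Th1 libraries 14 to 25 held no read of these genes, and no level passed 3.29 CPM. The lowest unadjusted p for KI minus WT among named genes were 0.00185 for Irgq (0.80 ± 0.23), 0.00191 for Rfc3 (-0.70 ± 0.21) and 0.0024 for Jaml (-1.67 ± 0.51), and for KI minus KO 0.00159 for Nusap1 (-0.65 ± 0.19) and 0.00233 for Hint3 (-0.72 ± 0.22). None passed adjustment. In KI alone Irgq rose by 1.19, and Jaml fell by 1.51. The call of Jaml was lost without Th0 KI 1, Th0 KI 4 or Th1 KI 2.

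By the same test, 486 genes (2.22%) were higher and 179 (0.818%) lower in Th1 WT against Th0 WT, together 3.04%, and 1166 (5.33%) and 914 (4.18%) in Th1 KO against Th0 KO, together 9.51%. These counts rest on other libraries than the KI count. Of the 1295 KI genes, 409 were called in the same direction in WT (31.6% of the KI and 61.5% of the WT genes) and 786 in KO (60.7% of the KI and 37.8% of the KO genes), none in the opposite direction. In all 3 genotypes 298 genes rose and 100 fell. The sign of the KI genes was shared by 98.3% in WT and 98.9% in KO, against 72.3% and 73.8% of all genes tested, and 498 KI genes were called in neither.

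Gata3 differed by -4.02 in WT and -4.10 in KO against -2.68 in KI. The difference of these effects was 1.33 (unadjusted p = 0.0245 by edgeR) and 1.42 (unadjusted p = 0.0173 by edgeR), which did not pass adjustment. Ifng differed by 1.90 in WT and 2.17 in KO against 1.74 in KI, none of them called unpaired. Cxcr1 rose by 9.34 in WT and 7.37 in KO. The antiviral list had 0 of 18 fallers in WT and 2 in KO against 5 in KI, with medians of -1.01, -0.92 and -1.79. The interferon-gamma list had 2 of 22 fallers in WT and 5 in KO against 6 in KI, with medians of -0.45, -0.27 and -0.43. Of all genes tested 0.818% fell in WT, 4.18% in KO and 2.94% in KI. Whether the lists differed between genotypes was not tested. The largest risers that are also called in WT and KO include Serpinb5, Cxcr1, Myh11, Timp1 and Abca1, and of the fallers Tbc1d4, Gata3, Csf2 and P2ry1. Ahr, a riser in KI, differed by -0.05 in WT and 0.26 in KO, with unadjusted p of 0.00687 and 0.0294 by edgeR for the differences of effects and none after adjustment.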

How the data were processed

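RNA was measured by poly(A) RNA sequencing with 150 base reads in 44 libraries, of which 9 are described. The authors deposited 1 table of read counts per gene with 2 lane columns per library, which were summed. Per the file headers, the authors aligned trimmed reads with STAR and sorted the alignments. Not given in the sources used here are counting tool, annotation and strand setting. GRCh38 is named in the submitters' processing notes, while the gene identifiers are mouse, and 52083 of 55416 were found in a GRCm38 annotation from which coordinates were taken.

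All 44 libraries, including Treg cultures, were fitted together in edgeR 4.0.16 (R 4.3.3) as 9 group means, with TMM scaling, edgeR's filter on low counts (21873 genes kept, some without a name: 1492 in the whole table), quasi-likelihood tests and Benjamini-Hochberg adjustment over all genes tested at 0.05. An SE is the log2 fold change divided by the root of F. The library totals of the 9, 91865044 to 137415965 counts, put the floor of 3 counts at 0.0218 to 0.0327 CPM. Intervals were not computed. Same-numbered Th0 KI and Th1 KI libraries correlated in their deviations from the group means at 0.147, 0.552, 0.315 and 0.408, and other pairs at -0.378 to 0.110, so the numbers were taken to pair the samples. The paired fit used the 29 Th0 and Th1 libraries with number within genotype as a block. Alternatives were DESeq2 1.42.0, RLE size factors, no filter, the 9 KI libraries alone, the 4 KI pairs alone and leaving out libraries, singly or as a reduced fit without those numbered KI 3, KO 2 or WT 4. A term for sex, read from a Y-linked gene, was added after seeing the data. The unpaired fits by edgeR and DESeq2 were tried on simulated counts that held no effect of library number. The paired fit was not tried on simulated counts.

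The members and gene lists were chosen with earlier results of these data known, and the list of mitochondrial transcripts was added last. Named genes were a fixed set of lineage genes, the 12 largest called changes each way with separate groups and an average log2 CPM of 2 or more, up to 5 called genes of each list and its largest change not called, and the 3 genes of lowest p for each difference of effects. Results for some genes are not reported here, and these genes were left out of the lists. Promoter sequences are from RefSeq (GRCm38.p6).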

Additional observations from a re-analysis of the deposited data

Results flagged for a closer look

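In 39 of 257 groups of 4 or 5 libraries, 1 library lay further from the others than Dixon's 95% limit allows. That limit is made for independent values with a normal spread. It was applied here to CPM of related genes, so no chance rate is set beside the count. A group with only 1 library above 0 is flagged whatever its level. Of the 39 flagged groups, 12 were in Th0 KI 3 and 12 in Th1 KI 3. In Th0 KI 3 the high values were Cd8a at 107.5 CPM, Cd79b at 143.1 CPM, Klrb1c at 7.93 CPM, Frmd4b at 10.5 CPM, Sema3b at 12.3 CPM, Atp2b4 at 77.5 CPM, Atp6v0d2 at 1.38 CPM, Timp1 at 4.47 CPM, Lag3 at 220.6 CPM, Bcl3 at 34.9 CPM and Socs3 at 96.6 CPM, and the low value was P2ry1 at 2.57 CPM. In Th1 KI 3 all were high: Cd8a at 107.4 CPM, Cd79b at 62.9 CPM, Klrb1c at 2.66 CPM, Ciita at 13.02 CPM, Cd3g at 175.5 CPM, Ifngr2 at 22.1 CPM, Maf at 2.86 CPM, Idi1 at 399 CPM, Runx3 at 187 CPM, and the summed markers of B cells at 1494 CPM, of CD8 T and NK cells at 602.5 CPM and of myeloid and dendritic cells at 35.9 CPM. The genes of Th0 KI 3 that were high include 5 of the largest risers of Th1 culture.

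Th0 KI 1 stood apart with Idi1 at 572.5 CPM, Cycs at 361 CPM, Pcna at 760 CPM, Rfc3 at 111.2 CPM, Kdm5d at 53.5 CPM and summed stress genes at 3632 CPM, all high, and Zeb1 at 59.3 CPM, low. In Th1 KI 4 Iigp1 at 164 CPM, Socs2 at 24.1 CPM and Atf3 at 27.1 CPM were high and Irgq at 29.1 CPM low. Il2ra was high in Th1 KI 2 at 2204 CPM. Hba-a2 in Th1 KI 1 at 0.149 CPM, Gab1 in Th1 KI 5 at 0.0832 CPM and S100a8 in Th0 KI 5 at 0.0282 CPM were the only libraries of their groups above 0.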

How the results depend on the processing

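The 72 named genes that were called kept their direction in every alternative run, and 35 of them were called in every one. Leaving out 1 library gave 390 to 1577 called genes, with 1.24% to 3.83% of genes tested higher and 0.5% to 3.22% lower. With no filter 826 genes were called (0.938% lower), and with the 9 KI libraries alone 1.7% were lower. The replicate block gave 3830 (8.11% higher, 10.2% lower), the replicate block over 4 KI pairs 2239 (6.58% higher, 5.62% lower), and for WT and KO the replicate block gave 2842 and 5864. DESeq2 called 1908 genes for Th1 KI against Th0 KI, 1 for KI minus WT and 5 for KI minus KO. The 29 Th0 and Th1 libraries unpaired gave 1500 by edgeR. The term for sex gave 1252. Of the named calls 20 were lost with no filter, 14 with the 9 KI libraries alone and 6 with the 29 Th0 and Th1 libraries unpaired. Calls were gained by 14 genes with the 9 KI libraries alone, by 11 with the 29 libraries unpaired and by 7 with DESeq2. In the reduced fit without libraries numbered KI 3, KO 2 or WT 4, the calls of Ccr8, Il1r1, Izumo1r, Cdk1, Pcna and Bid were lost (adjusted p = 0.14, 0.111, 0.0927, 0.0542, 0.0909 and 0.0677 by edgeR). The replicate block ended the call of Ccr8, and that over 4 KI pairs those of Uqcrc2 and Pcna (adjusted p = 0.0598 and 0.0923 by edgeR). The cause was not tested.

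Signs turned for 6 genes that were not called. On leaving out 1 library, Il12rb1 ran from -0.0968 to 0.0456, Foxp3 from -0.363 to 0.232, Cd8a from -2.44 to 1.69, Cd79b from -2.54 to 0.43, Klrb1c from -3.51 to 0.46 and Kdm5d from -0.386 to 13.8. Foxp3 was at 0.0469 with the replicate block and 0.0566 over 4 KI pairs, and Kdm5d at -0.175 with the replicate block and -0.28 with the term for sex. Depth limits Serpinb5, Cxcr1 and other genes at a few counts in Th0 KI, whose fold changes depend on the prior count.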
